A study of Mus musculus with 20 samples.

Results

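Mb (Entrez gene 17189, chromosome 15), Des (13346, chromosome 1) and Cox8b (12869, chromosome 7) are genes best known from muscle, followed here through the conversion of 3T3-L1 cells, a mouse fibroblast line, into fat cells. Every probe set with one of these symbols as its only platform symbol was taken, which gave 4 probe sets for 3 genes among 13069 probe sets, and among 6137 genes that were named by a single symbol. Array A, the first of 2 Affymetrix array types, held 1 probe set each for Cox8b and Des, and array B held 2 for Mb. Of the 4, 3 passed the limit for low values and 1 of Mb did not. The genes were selected on their measured late levels in these same cells, so their own levels are described without a test.

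All samples came from 1 cell line, with no change to its genome named in the labels. Preconfluent and confluent cells were collected before induction with the MDI protocol (in common use isobutylmethylxanthine, dexamethasone and insulin), and the others 6, 12 and 24 hours and 2, 3, 4, 7 and 28 days after it. From these labels the 10 time points were put into 4 stages: before induction, with 2 samples, early, with the 3 samples taken within 24 hours, middle, with days 2 and 3, and late, with the 3 samples of days 4, 7 and 28. Each time point was 1 sample per array type, so nothing separates a culture's own deviation from its time point. 3T3-L1 is a clonal line in culture and holds no labelled muscle cells.

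Myoglobin, the product of Mb, is a haem protein that binds oxygen in the cytoplasm of heart and skeletal muscle fibres. Desmin, from Des, is the intermediate filament protein that ties the contractile units of muscle cells to one another and to the membrane. Cox8b encodes the heart and muscle form of subunit 8 of cytochrome c oxidase, the last enzyme of the respiratory chain, and is also much used as a marker of brown fat. In muscle such genes are read under the MyoD family of factors, which bind E-boxes, and under MEF2 and serum response factor.

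The start regions of the 3 genes are shown because an E-box of the letters CAGCTG, a form that muscle regulators bind, lies in each window printed here. The windows run from 250 bases before the listed start to 50 bases after it, 300 bases in all, from RefSeq on GRCm38.p6, and CAGCTG is in capitals. They are chr7:140900397-140900696 on the minus strand for Cox8b, chr1:75360042-75360341 on the plus strand for Des, and chr15:77022678-77022977 on the minus strand for Mb, which has 3 listed starts.
Cox8b: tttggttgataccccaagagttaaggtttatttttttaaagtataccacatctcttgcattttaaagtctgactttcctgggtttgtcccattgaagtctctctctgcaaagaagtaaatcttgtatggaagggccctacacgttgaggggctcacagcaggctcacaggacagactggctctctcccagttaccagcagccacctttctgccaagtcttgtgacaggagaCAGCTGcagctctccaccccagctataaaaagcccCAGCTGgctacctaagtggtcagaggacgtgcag
Des: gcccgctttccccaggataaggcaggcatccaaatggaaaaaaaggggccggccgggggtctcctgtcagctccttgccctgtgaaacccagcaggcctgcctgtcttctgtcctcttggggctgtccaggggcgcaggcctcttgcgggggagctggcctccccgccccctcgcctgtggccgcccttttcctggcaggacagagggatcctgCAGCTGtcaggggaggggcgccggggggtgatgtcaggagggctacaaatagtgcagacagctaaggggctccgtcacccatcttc
Mb: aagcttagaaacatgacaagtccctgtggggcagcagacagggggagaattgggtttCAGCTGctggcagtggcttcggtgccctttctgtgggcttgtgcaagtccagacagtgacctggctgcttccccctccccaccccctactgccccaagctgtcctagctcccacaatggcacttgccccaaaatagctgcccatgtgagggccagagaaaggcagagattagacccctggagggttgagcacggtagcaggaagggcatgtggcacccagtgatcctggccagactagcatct
CAGCTG, which reads the same on both strands, begins at positions 232 and 267 of the Cox8b window, at position 215 of the Des window and at position 58 of the Mb window. It is present in 4 of the 5 windows of these genes, Mb's other starts included, though 2 of the Mb windows overlap and hold the same site. It is in 16.3% of all 32851 windows of this length. The looser form CANNTG, which includes CAGCTG, is in 5 of 5 and in 72.3% of all. TATAAA, searched on both strands, is in the Cox8b window (position 255) and in 13.6% of all. AGGTCA, a half-site of nuclear receptors, is in the same 2 overlapping windows of Mb and in 16.3% of all. Neither the MEF2 motif nor the CArG box, the site of serum response factor, has a match in the 5 windows, against 3.19% and 1.63% of all windows. These matches describe letters in a short stretch and say nothing of binding.

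The deposited values are linear intensities, scaled by the authors, and some lie below 0. For log values a floor of 136 on array A and 156 on array B was used, so a value below it carries no order. Mb was seen at a steady intensity through the first 9 time points and then far above it on day 28. Its first probe set, marked by the maker as shared by related transcripts, read 486 in preconfluent and 567 in confluent cells. It read 523, 398 and 522 at 6, 12 and 24 hours, and 466 and 531 on days 2 and 3. On days 4, 7 and 28 it read 605, 651 and 4790. The first 9 values had a mean of 528 ± 75.1 (SD, n = 9), and day 28 was 7.36 times the highest of them. The late stage as a whole was 2.35 times the stage before induction, a log2 difference of 1.24, with an SD among the late values of 1.69 on the log2 scale. That difference rests on day 28, and without it the log2 difference is 0.26. Days 4 and 7, at 605 and 651, lay above the highest earlier value, 567. The share of all probe sets with such a rise was not counted.

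The second Mb probe set, which carries neither the mark for related transcripts nor one for a gene family, did not show this. Its values ran from -132 on day 2 to -31 on day 7, with -91 on day 28, and none reached the floor. It failed the limit for low values and has no fold. The 2 Mb probe sets therefore disagree about day 28, and the high value is carried by the shared one alone. Which transcript gave the signal was not tested.

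Cox8b was not above the floor before day 4 and was higher at each time point from there on. Its probe set, marked as common to a gene family, read -184 in preconfluent and -90 in confluent cells. It read -239, -157 and -64 at 6, 12 and 24 hours and -15 and -316 on days 2 and 3. Days 4, 7 and 28 gave 167, 1910 and 6610. No earlier sample overlapped the late ones, but the gene was chosen on its late levels and passed the limit on days 7 and 28 alone. How many of all probe sets show such a gap was not counted. The late stage was at least 9.43-fold above the stage before induction, a log2 difference of 3.24 with the floor in place (late SD 2.70, n = 3). Day 7 was 11.4-fold above day 4 and day 28 a further 3.46-fold above day 7, each between 2 single samples. Without day 28 the log2 difference is 2.05, and without day 4, which stood just above the floor, it is 4.71.

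Des stayed close to the floor throughout and was highest in the late samples. It read 129 in preconfluent and 32 in confluent cells, then 124, 40 and 92 at 6, 12 and 24 hours. It read -34 on day 2, 173 on day 3, 226 on day 4, 321 on day 7 and 456 on day 28. After day 2, each sample was above the one before it, and the 3 late samples lay above all others. As with Cox8b, the gene was chosen on these late levels, and it passed the limit in those 3 samples alone. How many of all probe sets show such an order was not counted here either. The late stage was at least 2.36-fold above the stage before induction, a log2 difference of 1.24 (late SD 0.51, n = 3). The size depends on the floor: the log2 difference is 1.78 with the floor halved and 0.33 with it doubled. The probe set is marked as shared by related transcripts.

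**Figure D1:**
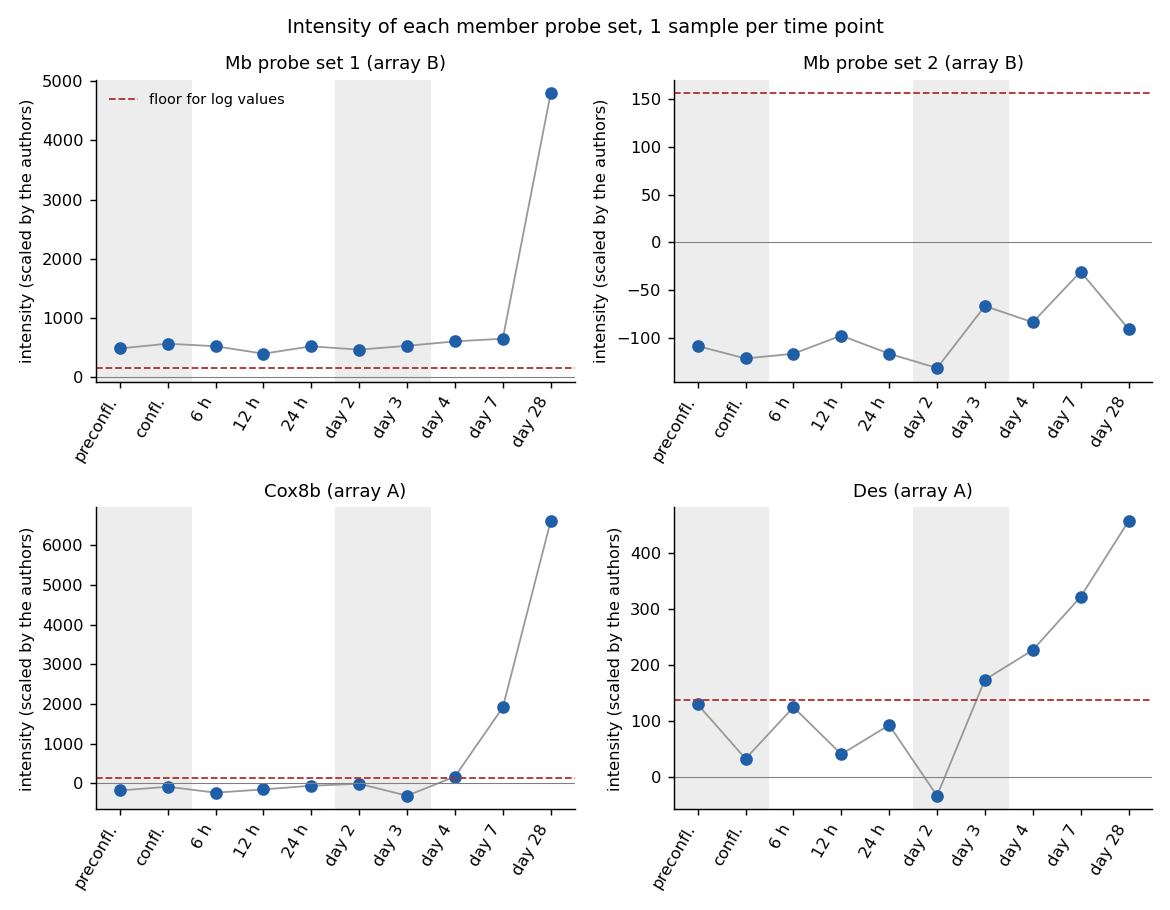
Intensity (scaled by the authors) of the 4 probe sets of Mb, Cox8b and Des at the 10 time points, 1 sample each, on separate scales; grey bands mark the stages before and middle, and the dashed line is the floor (136 on array A, 156 on array B). Mb probe set 1 is level up to day 7 and reads 4790 on day 28, Mb probe set 2 stays below the floor, and Cox8b and Des are higher on each of days 4, 7 and 28 than on the one before.

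Mb stands here and below for its first probe set, as the second was below the floor in all 10 samples. On that reading, the 3 genes had their highest value in the same sample, day 28, but reached it along different courses. Des first passed the floor on day 3 and Cox8b on day 4, while Mb was above the floor throughout, slightly above its earlier values on days 4 and 7 and far above them on day 28. Day 28 exceeded the highest other sample 7.36-fold for Mb, 3.46-fold for Cox8b and 1.42-fold for Des. With the floor in place, such a ratio of 2 or more was found for 62 of the 7582 probe sets that passed the limit for low values, or 0.818%, and 11.3% of them had their highest value on day 28. The ratio of Mb was the largest among these 7582, and that of Cox8b was reached by 14, itself included. For Des 190 were as high. The limit asks for 2 samples above it, so probe sets high on day 28 alone are not among the 7582. Among all 13069 probe sets the ratio ranked 6 for Mb, 27 for Cox8b and 274 for Des. This comparison was added after the values had been seen, and day 28 is 1 sample on each array type, so it describes that sample.

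Other genes high on day 28, likewise picked after their values were seen, were measured beside Mb and Cox8b. Nfatc2ip, which encodes a partner of an NFAT factor, read 1380 on day 28 against at most 133 elsewhere, 10.1-fold with the floor in place, and was not tested. Cidea, a lipid droplet protein used as a brown fat marker, lay between -159 and 152 in the first 9 samples and at 964 on day 28, 6.34 times the highest other with the floor in place. It passed the limit in 1 sample alone and was not tested. Sncg, gamma-synuclein, which adipocytes also make, read 3070 on day 7 and 18500 on day 28, 6.03 times its highest other value. Usp19, a ubiquitin protease, read 1730 on day 28 against at most 320 elsewhere. On the same measure, 0 of the 72 measured genes of the 4 muscle lists described below reached 2-fold on day 28. Of these 72, 40 passed the limit for low values, and the count among those 40 was likewise 0. Among all 7582 probe sets that passed it, 62 reached 2-fold (0.818%), and in so few genes a count of 0 lies near that share. The share over all 13069 probe sets, which would match the 72, was not counted.

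The sample of day 28 also differed in preadipocyte and fibroblast markers. Whether these mark cells that had not converted was not tested. The summed intensity of 14 preadipocyte and fibroblast markers was 82863 to 125805 before induction, 45893 on day 7 and 83053 on day 28. Col1a1, a collagen chain of fibroblasts, read 5520 on day 7 and 19100 on day 28. Thy1, a surface protein of fibroblasts, went from 674 to 4240. Vim was close on the 2 days (6180 and 6410) and Pdgfra was below the floor on both. The other markers of the list were higher on day 28 than on day 7. Summed smooth muscle genes were 3178 on day 7 and 9243 on day 28, but most of that difference is Acta2, smooth muscle actin, at 502 and 5850. Tpm1 (512 and 1120), Tagln (414 and 897) and Csrp1 (480 and 650) were also higher on day 28 than on day 7. Cnn2 passed the floor on day 28 (149) but not on day 7. Actg2 (511 and 413), Cnn1 (291 and 9) and Mylk (264 and 50) were lower. Vcl, Tpm2 and Myh11 were below the floor on both days. The part of the cells behind these markers in the values of Mb, Cox8b and Des was not tested. In a culture measured in bulk, fewer cells of a type and less RNA per cell cannot be told apart.

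The 3′ to 5′ control ratios, a measure of RNA quality, lay on day 28 within the range of the other samples. The ratio of the 3′ to the 5′ control probe set on array A was 0.992 for Gapdh, against 0.986 to 1.61 in the first 9 samples, and 1.41 for beta-actin, against 1.05 to 1.72. On array B it was 0.773 for Gapdh, against 0.722 to 0.815, and 1.05 for beta-actin, against 0.801 to 1.11. The share of values below 0 on day 28 was 25.5% on array A, the highest of its 10 samples, and 30.5% on array B, inside the range of 29.7% to 31.2%. The trimmed mean was between 500.9 and 501.1 on every array.

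**Figure D2:**
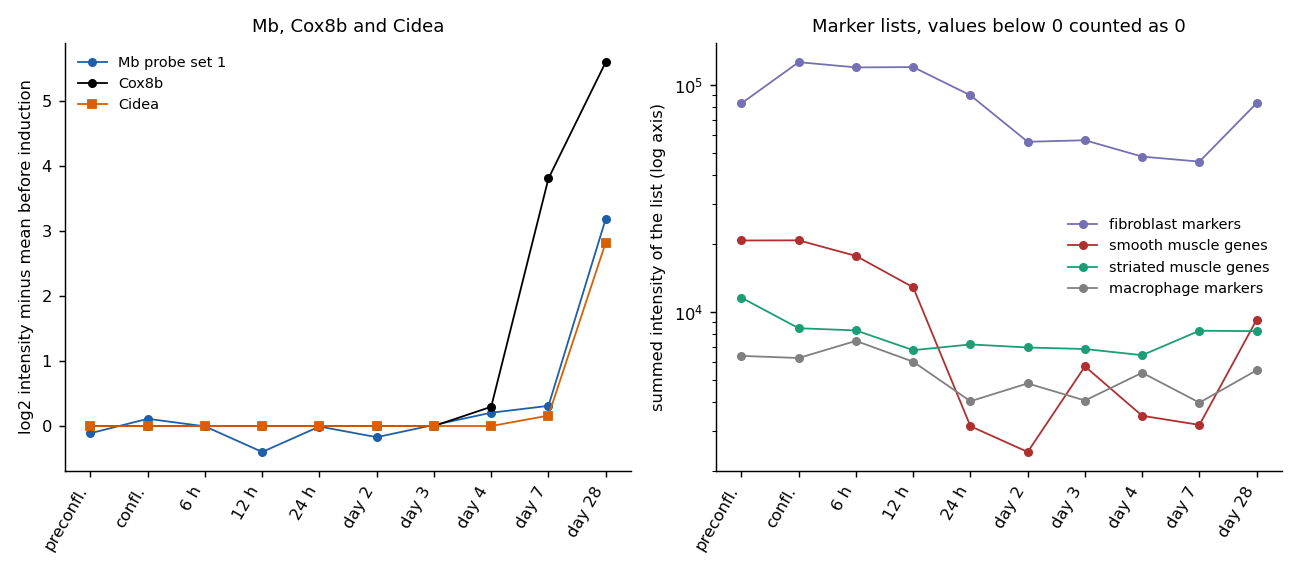
Left, log2 intensity of Mb probe set 1, Cox8b and Cidea minus each one's mean before induction, with the floor in place, at the 10 time points; right, summed intensity of 4 marker lists on a log axis, with values below 0 counted as 0. Mb and Cidea leave their earlier level on day 28, and the fibroblast sum goes from 45893 on day 7 to 83053 on day 28.

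Across the 10 time points the floored log2 values of Des and Cox8b had a Pearson r of 0.940, those of Mb and Cox8b 0.860 and those of Mb and Des 0.826. These numbers describe the shape only, since the samples are a time course, Des and Cox8b share array A, and Cox8b and Des sit at the floor in 7 and 6 of the 10 samples. Among 7581 other probe sets, 38 had an r of 0.95 or more with Cox8b, 34 with Des and 13 with Mb.

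The named genes most like Cox8b were D7Ertd128e (r = 0.995), Pou6f1 (0.994), Hoxb13 (0.993), Siae (0.990) and Selenbp1 (0.988), each over 10 time points. Selenbp1, a selenium-binding protein, was the brightest of them, at most 39 up to day 3 and then 297, 1010 and 3130 on days 4, 7 and 28. The other 4 never exceeded 543, and Hoxb13, whose gene is a homeobox factor, topped out at 199. Genes most like Des included Slc25a20 (r = 0.987), Myb (0.984), Cdk7 (0.982) and Abcd2 (0.981). Slc25a20, the carrier that brings acylcarnitines into mitochondria, lay between 348 and 421 up to day 3 and read 557, 756 and 919 on days 4, 7 and 28.

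Mb was most like Rnf19a (r = 0.987), Mgst2 (0.983), Tfrc (0.966), Lrba (0.964) and Aatk (0.957). Each of them was below the floor in most samples, and Mb was level up to day 7, so these r values rest largely on day 28. Rnf19a, a ubiquitin ligase, lay between 53 and 171 and then at 493. Mgst2, a microsomal glutathione transferase, read 605 on day 28 against at most 184 before. Tfrc, the transferrin receptor, passed the floor only on days 2 and 28, at 157 and 164, so its likeness to Mb rests on values next to the floor.

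The genes were next set beside lists of the muscle programme, chosen with earlier results of these data known. The stage means were compared with limma, each array type fitted alone, and a call is an adjusted p under 0.05 (Benjamini-Hochberg over both array types). With no replicates, what stands for error in these p-values is how far samples of one stage differ, real change with time included. In late against before, 826 of 7582 probe sets were called, or 10.9%, with 441 higher (5.82%) and 385 lower (5.08%), and 1903 had an unadjusted p under 0.05. The median log2 difference of all tested probe sets was -0.05. With no filter on low values the late calls of Hk2, Ak1, Alas1, Cox8a and Lmna were kept among the genes named below from the lists on muscle, filaments, cytochrome c oxidase and haem, and the others were lost. With confluent cells as the only baseline, those of Hk2, Ak1, Alas1, Cox5a and Cycs were kept. With the floor doubled, Actg2, Tpm1, Gfap, Ldhb and Alad lost theirs, and with day 4 counted as middle Ldhb, Lmna, Cox8a, Cox7a2, Cox17 and Alad did.

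Other muscle genes were read through 4 lists. Of 72 genes measured over the 4 lists of myogenic regulators, striated muscle genes, muscle-type metabolic isoforms and smooth muscle genes, without Mb, Des and Cox8b, 21 never rose above the floor. Of the 40 tested, 2 were called higher and 3 lower. These are descriptions of counts beside the background given above, with no test of a list.

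None of the 7 tested myogenic regulators, of 13 measured, was called by limma in either direction, and none had an unadjusted p under 0.05. Their median log2 difference was 0.28. Myod1, the factor that can turn fibroblasts into muscle cells, ranged from 12 to 423, with a median of 197.5 over the 10 samples. It read 29 on day 28, where the first Mb probe set was highest. Myog, which drives the last step of muscle differentiation, lay between 323 and 906, with 901 on day 28 and 906 at 12 hours. The log2 difference was 0.70 for Myod1 (limma, adjusted p = 0.396) and 0.28 for Myog (adjusted p = 0.753).

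Of 35 genes of striated muscle contraction and membrane, 14 never passed the floor and 16 were tested, with 0 called by limma and 1 at an unadjusted p under 0.05. Acta1, skeletal muscle actin, ran from -4 on day 28 to 121, and Tnnt3, fast troponin T, stayed below 0 throughout. Actc1, cardiac actin, read 4960 in preconfluent cells and 1090 on day 28, on a probe set marked as common to a gene family. Its log2 difference of -1.35 missed the threshold (limma, adjusted p = 0.0535). Actc1 was called along the series, in limma's F test of a spline over the time points (adjusted p = 0.0197), a test that called 1274 probe sets, or 16.8%. That call was lost without the preconfluent sample (adjusted p = 0.139).

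The 13 muscle-type metabolic isoforms were split. Of the 9 tested, Hk2 and Ldhb were called higher and Ak1 lower. Hk2, the hexokinase of muscle and fat that responds to insulin, had a log2 difference of 2.65 ± 0.24 (SE), or 6.28-fold (limma, adjusted p = 0.000637). Ldhb, a lactate dehydrogenase subunit of heart, had one of 2.80 ± 0.69, or 6.98-fold (adjusted p = 0.0356), with both its probe sets called. Ak1, an adenylate kinase abundant in muscle, had one of -1.45 ± 0.22 (adjusted p = 0.00546), 2.74-fold lower. The log2 difference of Ldhb is 1.79 without the preconfluent and 3.81 without the confluent sample. Hk2 and Ak1 kept their call in all 18 alternatives run, while Ldhb lost it in 9, among them leaving out the preconfluent sample (adjusted p = 0.22), day 3 (0.0519), day 4 (0.0828), day 7 (0.0501) or day 28 (0.0836).

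Ckm, muscle creatine kinase, ranged from 1830 to 3670, and its log2 difference of -0.31 did not pass (limma, adjusted p = 0.571). Fabp3, the heart fatty acid-binding protein, stayed below the floor in all 10 samples, at most 91. Cox6a2, the muscle form of another cytochrome c oxidase subunit, read 313 in confluent cells and 316 and 330 on days 7 and 28. It was below the floor in the other 7 samples, and its log2 difference was 0.20 (adjusted p = 0.796).

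Smooth muscle, which also makes desmin, was represented by 11 measured genes. Of 8 tested, 0 were called higher and Actg2 and Tpm1 were called lower, and the median log2 difference was -1.20. Actg2, enteric smooth muscle actin, had a log2 difference of -2.27 ± 0.54 (SE), 4.81-fold lower (limma, adjusted p = 0.0234). Its probe set is marked as common to a gene family, so the signal may not be of Actg2 alone. Other genes named here have the same mark and the same limit, among them Ldhb, Cox5a, Cox7a2, Cox6a1, Cox4i1, Cycs and Fabp4. Tpm1, a tropomyosin, had one of -2.67 ± 0.56, 6.37-fold lower (adjusted p = 0.0128). Acta2 read 8440 and 11600 before induction and -58, 502 and 5850 on days 4, 7 and 28, with no call (adjusted p = 0.252). Tagln, transgelin, was called along the series only (adjusted p = 0.0378), as was Csrp1, a LIM-domain protein (0.0493). Tpm1 lost its call without the preconfluent (0.0721) or confluent sample (0.0633), and Actg2 without the preconfluent sample (0.167), day 7 (0.0665) or day 28 (0.0649). Tagln lost its call without the preconfluent sample (0.3), 6 hours (0.055), 12 hours (0.0608), 24 hours (0.0715), day 2 (0.0835) or day 4 (0.0707), and Csrp1 in 16 of 17 alternatives, with each of the 10 samples left out among them (0.0512 to 0.124).

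Desmin's own family was read through the other intermediate filament genes, of which 0 were called higher on their brightest probe set. Of 12 tested of 22, Lmna and Gfap were called lower, with a median log2 difference of -0.34. Krt17, a keratin, was not called on its brightest probe set, but the other of its 2 was. Vim, vimentin, the filament protein of fibroblasts, lay between 6180 and 8410, and its log2 difference of -0.29 did not pass (limma, adjusted p = 0.254). Lmna, which encodes nuclear lamins A and C, had one of -1.06 ± 0.27 (adjusted p = 0.028). Gfap, the filament of astrocytes, had one of -1.84 ± 0.40 (adjusted p = 0.0143), at least 3.57-fold lower, with 1 of its 2 probe sets called. With the floor halved the log2 difference of Gfap is -2.50, and with it doubled -0.89 (adjusted p = 0.164). The calls of Lmna and Gfap were lost without the preconfluent (0.137 for Lmna, 0.0983 for Gfap) or the confluent sample (0.0969 and 0.0537), and that of Lmna also without day 4 (0.0573) or day 7 (0.0589).

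**Figure D3:**
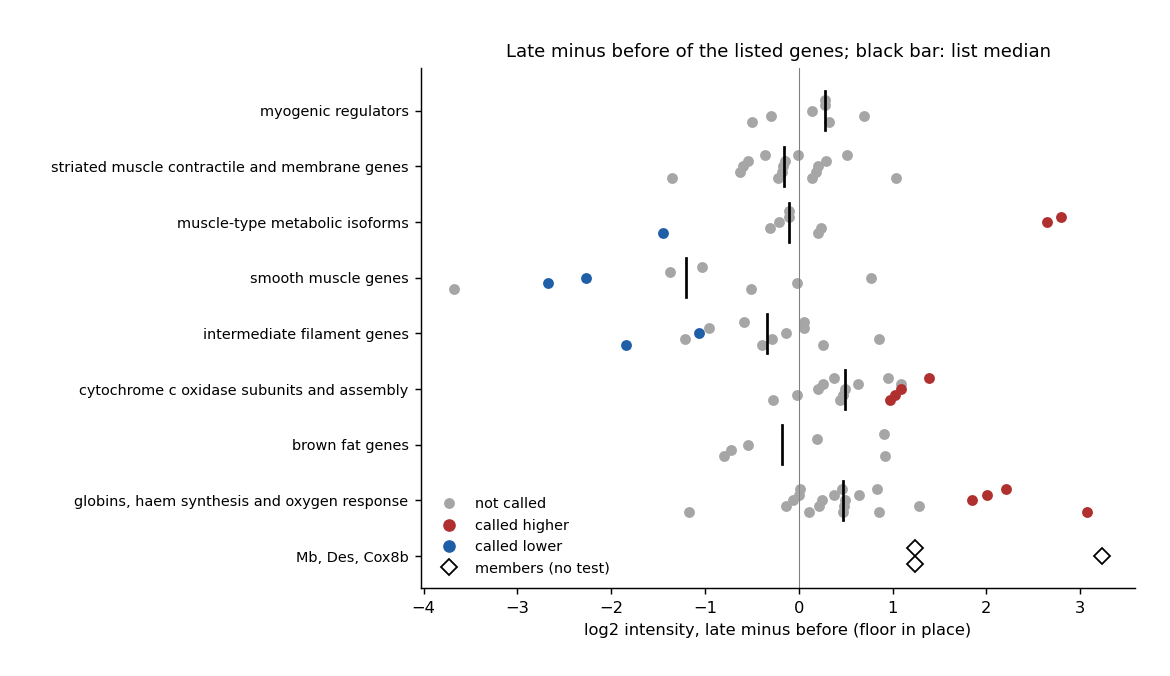
Log2 intensity in late minus before, floor in place, for every tested gene of 8 lists (points) with the list median (black bar); red and blue points are called higher and lower by limma, grey points are not called, and open diamonds are Mb, Des and Cox8b, which have no test. The medians of the 4 muscle lists run from -1.20 to 0.28, with 2 genes called higher and 3 lower, and the cytochrome c oxidase list centres at 0.49.

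Cox8b was set beside the other nuclear genes of cytochrome c oxidase and its assembly. All 15 measured genes were tested, 4 were called higher and 0 lower, and the median log2 difference was 0.49. Cox8a, the form of the same subunit found in most tissues, read 12400 and 13100 before induction and 28500, 22000 and 24900 on days 4, 7 and 28. Its log2 difference was 0.97 ± 0.27 (SE), or 1.96-fold (limma, adjusted p = 0.0418). Cox8a was above the floor in all 10 samples, while Cox8b passed it in 3.

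Cox5a, a matrix-side subunit, had a log2 difference of 1.02 ± 0.22, or 2.03-fold (limma, adjusted p = 0.0224). Cox7a2, the widely made form of subunit 7a, had one of 1.09 ± 0.25, or 2.13-fold (adjusted p = 0.0299). Cox17, the copper chaperone of the enzyme, had one of 1.39 ± 0.36, or 2.62-fold (adjusted p = 0.0327). Cox4i1, a core nuclear subunit, had one of 0.47 and did not pass (adjusted p = 0.131). Cox6a1 (adjusted p = 0.0219) and Cox7b (0.047) were called along the series only. Cox6a1 lost that without 12 hours (0.0504) or day 28 (0.058), and Cox7b in 12 of 17 alternatives, with each of the 10 samples left out among them (0.0631 to 0.112).

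All 4 late calls were lost without the confluent sample, at adjusted p values of 0.114 for Cox5a, 0.125 for Cox8a, 0.135 for Cox17 and 0.148 for Cox7a2. They were also lost without day 4, where Cox5a was at 0.0503. Cox8a lost its call in 13 of 18 alternatives, with each of the 10 samples left out in turn (0.0532 to 0.185). Cox17 and Cox7a2 also lost theirs without the preconfluent sample (0.117 and 0.0674), Cox17 and Cox5a without day 7 (0.0908 and 0.0566), and Cox7a2 without day 28 (0.0696).

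**Figure D4:**
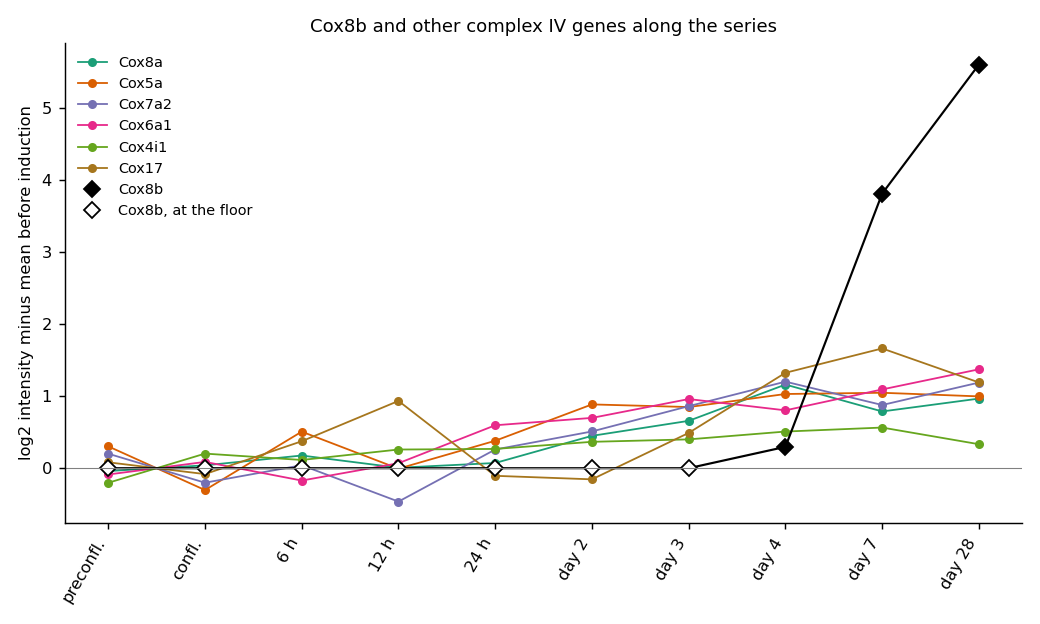
Log2 intensity of Cox8b (diamonds, open where at the floor) and 6 other cytochrome c oxidase genes (circles) minus each gene's mean before induction, at the 10 time points with 1 sample each. Cox8b is at the floor up to day 3, and on days 7 and 28 its difference from its own start exceeds that of the others.

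Brown fat genes, a list to which Cox8b also belongs by common use, were tested for 6 of 12 measured. By limma 0 were called in either direction, with 1 at an unadjusted p under 0.05, and their median log2 difference was -0.18. Ucp1, the uncoupling protein that defines brown fat, ranged from -46 to 79 and never reached the floor, on day 28 included. Zic1 and Lhx8, factors of brown fat, also stayed below it. Ebf2, another such factor, was above it in all 10 samples (189 to 396), and Tfam, a mitochondrial transcription factor, in 9, with a log2 difference of 0.92 that missed the threshold (limma, adjusted p = 0.0506). Cidea is described above.

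Beside myoglobin, 22 genes of other globins, haem synthesis and oxygen response were measured and 21 tested. Of these 4 were called higher and 0 lower, with a median log2 difference of 0.47. Alas1, the first and limiting enzyme of haem synthesis outside red cells, read 905 and 920 before induction and 4150, 3800 and 4760 on days 4, 7 and 28. Its log2 difference was 2.21 ± 0.24 (SE), or 4.62-fold (limma, adjusted p = 0.00148), and it kept its call in all 18 alternatives. Alad, the next enzyme of the path, had one of 2.01 ± 0.45, or 4.02-fold (adjusted p = 0.0256). On day 3 Alas1 and Alad read 2950 and 3410, while Mb read 531.

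Vegfa, a growth factor for vessels, had a log2 difference of 3.07 ± 0.59, or 8.41-fold (limma, adjusted p = 0.00812). Cycs, cytochrome c, the haem protein that feeds electrons to cytochrome c oxidase, had one of 1.85 ± 0.35, or 3.61-fold (adjusted p = 0.0124). The log2 difference of Cycs is 1.14 without the confluent and 2.57 without the preconfluent sample, both called. Hmox1, which breaks haem down (adjusted p = 0.00651), Cpox, a late enzyme of haem synthesis (0.0239), and Egln2, an oxygen-sensing hydroxylase (0.0433), were called along the series only. Cpox read 301 on day 7 and 804 on day 28, and its call was lost without day 3 (0.075) or day 28 (0.195). Vegfa lost its call without the confluent sample (0.0533). Alad lost its call without the preconfluent (0.13) or confluent sample (0.0866), day 4 (0.0611) or day 7 (0.0685), and Egln2 without any one of the samples up to day 4 (0.0544 to 0.142).

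Early against before, 27 probe sets were called, or 0.356%, and in late against middle 22, or 0.29%. No gene of the lists on muscle, filaments, cytochrome c oxidase, brown fat or haem was among them, by limma. At an unadjusted p under 0.05, 700 and 917 of the 7582 passed. For cytochrome c oxidase 1 of 15 genes passed unadjusted in each of the 2 comparisons, and for haem and oxygen 5 of 21 in each. Of 8 smooth muscle genes 3 passed unadjusted in early against before and 0 in late against middle. Cox8b and Des were below the floor at 6, 12 and 24 hours, and Mb was there between 398 and 523, against 486 and 567 before induction.

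The labelled conversion was checked on fat cell markers. All 11 adipocyte markers tested, of 12 measured, were called higher in late against before, with a median log2 difference of 4.11. Fabp4, the fatty acid-binding protein of fat cells, read 28400, 12700 and 25900 on days 4, 7 and 28, and Adipoq, adiponectin, 17700, 16500 and 19900. Both were at least 131-fold above the stage before induction. Fabp4 was at its highest value on day 4, when Cox8b read 167, Des 226 and Mb 605.

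Markers of other cell types were read in the same samples. Of 14 preadipocyte and fibroblast markers, 4 were called lower and 0 higher. Col1a2 was not called on its brightest probe set, but 1 of its 3 was. Of 7 macrophage markers tested 2 were lower, of 5 endothelial markers 1 was higher, and the 1 bone and cartilage gene tested was not called. The macrophage markers Adgre1 and Csf1r and the endothelial markers Pecam1 and Cdh5 were below the floor in all 10 samples, but others of the 2 lists were above it in all, among them Ptprc (1000 to 1720), Cd14 (1000 to 2470) and Kdr (538 to 1010). Lyz2, a lysozyme of macrophages, read 234 on day 7 and 1620 on day 28, beside 1240 on day 4 and 1080 in preconfluent cells. The part of these cells in the values of Mb, Des and Cox8b was not tested. Summed macrophage markers ranged from 3982 to 5534 in the late stage and from 6261 to 6399 before induction. Summed striated muscle genes were 8470 to 11541 before induction and 6444 to 8257 in the late stage. Their sum was 8222 on day 28, where the first Mb probe set, Des and Cox8b were highest.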

How the data were processed

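Total RNA of 3T3-L1 cells was labelled and hybridised to 2 Affymetrix array types, per the labels' protocols. The deposited values are the authors' linear intensity per probe set. Trimmed means (2% of the probe sets at each end) of 500.9 to 501.1 on all 20 arrays show that the values had been scaled to a common level. The software was not given in the sources used here. The probe sets' gene names came from the platform annotation (7542 with 1 symbol, 224 with several, 5303 with none, 110 controls left out). Values of the 2 array types were set side by side only in correlations, ranks of day 28 ratios and summed marker lists.

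The floor was the 10th percentile of an array type with its sign turned. A probe set was tested when above 182 (array A) or 156 (array B) in at least 2 samples, which kept 7582 of 13069. Stage means were fitted with limma 3.58.1 in R 4.3.3 on 6 residual degrees of freedom, and the trend with a natural cubic spline of 3 degrees of freedom. A fold against a stage at the floor is a lower bound ("at least"). The fit was tested on simulated data. Precision is limited by there being 1 array per time point.

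The members and the gene lists were chosen with earlier results of these data known. Named were all members, up to 6 called genes per list with the largest change, up to 3 more called only along the series, fixed defining genes, and the 5 genes most like each member, of which 1 is not reported here. Of a gene's several probe sets the brightest stands for it. The alternatives tried were other floors, filters, scalings, stage boundaries and baselines, another spline, and each time point left out. Promoter windows came from RefSeq (GRCm38.p6), and the motifs were searched on both strands.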

Additional observations from a re-analysis of the deposited data

How the results depend on the processing

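The values of the first Mb probe set and of Cox8b kept their direction under every alternative tried, with log2 differences of 0.26 to 1.75 and 2.05 to 4.71 as single samples were left out. For Des these were 0.99 to 1.49, and 1.78 with the floor halved and 0.33 with it doubled. Late against before, 826 calls became 412 with no filter, 317 with confluent cells as the only baseline, and 354 to 769 as single samples were left out, the lowest without the preconfluent sample (517 without the confluent one). The 27 calls in early against before became 65 with the floor doubled, 15 with no filter, 17 with 4 or more samples above the limit, 9 with the confluent baseline, and 0 (without 12 hours) to 27 as samples were left out, with 1 without the preconfluent sample and 16 without day 2 or day 3. The 22 calls in late against middle became 35 with the floor halved, 9 doubled, 12 with no filter, 11 with 4 or more samples, 85 with day 4 as middle, 14 with the confluent baseline, and 2 (without day 2 or day 7) to 117 (without day 4), with 4, 7 and 6 without 6, 12 and 24 hours and 37 without day 3. The 1274 along the series became 632 with no filter and 923 to 1263 as samples were left out.

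Of the list counts, cytochrome c oxidase genes called higher were 2 with no filter or day 4 as middle, 1 with the confluent baseline and 0 to 4 as samples were left out. Haem and oxygen genes were 1 with no filter, 2 with the confluent baseline, and 2 to 4. Metabolic isoforms higher were 1 with the floor doubled, no filter, day 4 as middle or the confluent baseline, and 1 to 2. Smooth muscle genes lower were 0 with the floor doubled, no filter or the confluent baseline and 0 to 2, and higher 0 to 1. Filament genes lower were 1 with no filter or day 4 as middle, 0 with the confluent baseline and 0 to 3, and higher 1 with the floor halved or day 4 as middle; with the floor doubled 2 were lower, without Gfap. Striated genes were 1 higher with day 4 as middle, 1 lower with 4 or more samples, and 0 to 1 higher and 0 to 2 lower. Brown fat genes higher were 1 under 4 or more samples or either rescaling, and 0 to 1. No paired analysis was possible because the stages share no numbers from the labels. With a sample left out of a stage of 2, its lone sample takes the spread of the others. Values near the floor, as for Des, limit what the signal can show, and the cause of these changes was not tested.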
